A study of Mus musculus with 3 samples.

Results

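The genes described here encode 9 enzymes that make asparagine, proline, cysteine, glutamate and glutamine or pass amino groups through glutamate: Asns, Pycr1, Aldh18a1, Cth, Cbs, Gpt2, Got1, Bcat1 and Glul. They were taken by gene symbol from the deposited expression tables, in which all 9 were found among 18287 listed genes. The members were chosen by their log2 differences from control in both deposited comparisons, together with their shared pathway, so their ratios are a description and not a test. RNA came from mouse aortic endothelial cells, a purchased culture of aortic lining cells, and was sequenced after enrichment for polyadenylated molecules. The groups were control cells, cells given glucose oxidase (5 mU/mL, 30 min), and cells given the same glucose oxidase dose together with ethyl-2-hydroxybenzylamine (Et2HOBA, 0.2 mM, 24 h). Glucose oxidase makes hydrogen peroxide from glucose, and Et2HOBA is used in this study as a scavenger of reactive lipid adducts. Each group was 1 library, the labels do not say how long after the 30 min exposure RNA was taken or in which order the agents were given, and a library given Et2HOBA alone was not analysed here.

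Amino acid synthesis is one arm of the integrated stress response. Kinases that sense missing amino acids, heme shortage, viral RNA or misfolded protein phosphorylate the initiation factor eIF2, which lowers general translation but favours translation of the transcription factor ATF4. ATF4, with a C/EBP-family partner, binds composite C/EBP-ATF response elements near genes of amino acid synthesis and uptake, and Asns is the textbook target. The products serve protein synthesis, glutathione (cysteine and glutamate), collagen (proline) and nucleotides (aspartate and glutamine). Cystathionine β-synthase and cystathionine γ-lyase, encoded by Cbs and Cth, form the transsulfuration route from homocysteine to cysteine and also make hydrogen sulfide, for which the lyase is regarded as a main source in vessel walls.

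The C/EBP-ATF core TGATGNAA was searched in the promoters because most of these genes moved together with respect to control. RefSeq promoter windows on build GRCm38.p6, from 250 bases before to 50 bases after a transcription start site, matched 8 of the 9 genes, and Bcat1 had a pair of windows, which made 9 windows in all; Cth had no window. The core was searched on both strands (TTNCATCA on the other) and lay in 3 of the 9 windows, those of Asns, Pycr1 and Got1. Of all 32851 promoter windows 3.97% held it, and of the 14491 windows of listed genes 2.38%. The windows with a match are shown together with that of Cbs, the lowest of the 9 genes against control, 5′ to 3′ on the strand of the gene, with the matches in capitals.
Asns, chr6:7693160-7693459, minus strand: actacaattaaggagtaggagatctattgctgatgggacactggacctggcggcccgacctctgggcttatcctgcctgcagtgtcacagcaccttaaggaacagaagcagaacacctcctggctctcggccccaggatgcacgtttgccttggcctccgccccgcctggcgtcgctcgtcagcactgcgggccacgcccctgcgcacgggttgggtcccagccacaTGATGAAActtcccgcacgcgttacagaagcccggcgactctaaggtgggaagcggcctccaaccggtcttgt
Pycr1, chr11:120643699-120643998, minus strand: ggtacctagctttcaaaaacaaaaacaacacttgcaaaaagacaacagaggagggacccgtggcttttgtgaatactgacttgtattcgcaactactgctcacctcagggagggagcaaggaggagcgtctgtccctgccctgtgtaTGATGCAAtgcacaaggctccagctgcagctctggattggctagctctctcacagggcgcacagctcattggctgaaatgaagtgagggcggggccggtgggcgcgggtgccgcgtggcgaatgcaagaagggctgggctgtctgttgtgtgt
Got1, chr19:43524556-43524855, minus strand: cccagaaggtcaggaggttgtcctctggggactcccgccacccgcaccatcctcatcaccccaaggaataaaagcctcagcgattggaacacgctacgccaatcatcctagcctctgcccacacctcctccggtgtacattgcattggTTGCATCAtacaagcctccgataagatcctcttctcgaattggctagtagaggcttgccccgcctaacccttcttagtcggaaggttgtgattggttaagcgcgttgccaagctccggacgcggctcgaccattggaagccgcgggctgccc
Cbs, chr17:31637156-31637455, minus strand: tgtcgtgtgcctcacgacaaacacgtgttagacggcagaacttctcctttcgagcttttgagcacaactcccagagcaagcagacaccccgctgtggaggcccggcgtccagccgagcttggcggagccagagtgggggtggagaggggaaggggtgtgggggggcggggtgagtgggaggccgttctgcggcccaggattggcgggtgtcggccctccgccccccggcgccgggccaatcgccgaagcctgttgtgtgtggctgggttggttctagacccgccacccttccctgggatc
In Asns the match was TGATGAAA at positions -23 to -16 from the RefSeq start site, where -1 is the base before the start. In Pycr1 it was TGATGCAA at -103 to -96, and in Got1 the reverse complement TTGCATCA at -102 to -95. The windows of Cbs, Aldh18a1, Gpt2 and Glul and both windows of Bcat1 held no match, which says only that these letters are not in 300 bases. The antioxidant response element core TGACNNNGC (GCNNNGTCA on the other strand), in 12.4% of all windows, occurred in Asns at -172 to -164. The E-box CACGTG, in 7.15% of all windows, occurred in Aldh18a1 at -59 to -54 and in Cbs at -229 to -224. No matches overlapped each other. A match is a string of letters and not evidence of binding.

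**Figure D1:**
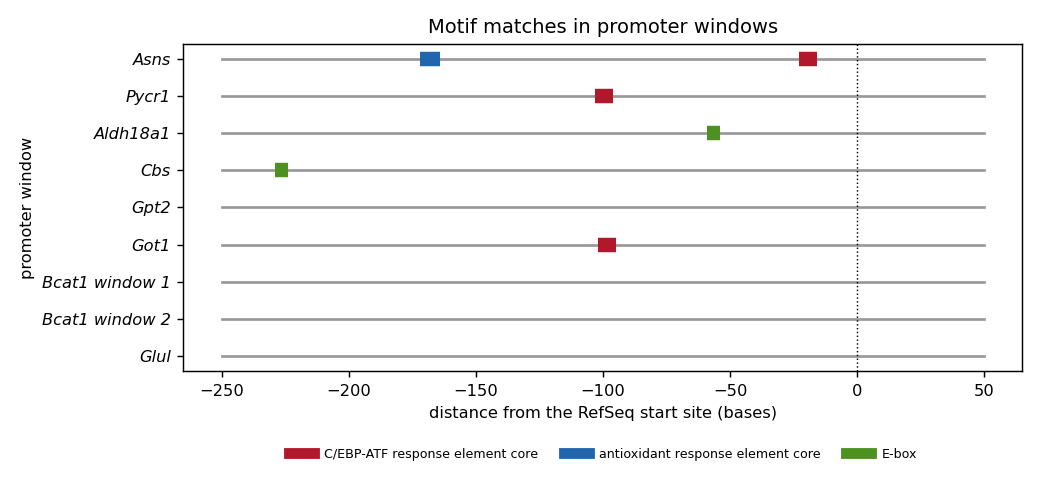
Positions of motif matches in the 9 promoter windows of 8 genes. The horizontal axis is the distance from the RefSeq start site in bases, each line is a window and each block a match, coloured by motif; C/EBP-ATF cores lie in Asns, Pycr1 and Got1.

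The libraries held 35969965 reads in control, 35005089 after glucose oxidase and 40212212 after glucose oxidase plus Et2HOBA over the listed genes. Whole reads for glucose oxidase alone were recovered from the authors' deposited table of log2 differences. All 8 endothelial markers were listed, none below a normalized count of 1625, and their summed normalized count was 300724, 195633 and 185523 in the 3 libraries in that order. Among them Tek (log2 ratios to control of -1.14 and -2.01), Vwf (-1.02 and -1.90), Kdr (-1.06 and -1.36) and Erg (-0.51 and -1.14) lay below control after either treatment. So did Tie1 (-0.66 and -0.88), Pecam1 (-0.38 and -0.35) and Egfl7 (-0.23 and -0.24), and Cdh5 was at -0.20 and 0.19. Of 6 smooth muscle markers 5 were listed and summed to 3717 to 4859, of which Smtn had 3517 to 4970 reads and the other 4 at most 73. Of 6 fibroblast markers 2 were listed, Col1a1 with 23 to 30 reads and Pdgfra with 107, 1325 and 2821, and Col1a2, Dcn, Lum and Dpt were not listed. Of 7 leukocyte markers 3 were listed, Csf1r with 6 to 12 reads, Lyz2 with 76 to 186 and Cd68 with 8215, 17067 and 27799, and Ptprc, Adgre1, Itgam and Cd3e were not. No listed marker was at 0. Pdgfra and Cd68 thus differed between libraries in the same order as most of the enzymes, and their part in the results was not tested. In bulk RNA a change in the share of cells and a change in RNA per cell cannot be told apart.

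Asparagine synthetase mRNA was about an order of magnitude more abundant after glucose oxidase. Asns (ENSMUSG00000029752.12, GRCm38 chromosome 6, 7675169 to 7693254, minus strand) makes asparagine from aspartate with glutamine as the amino donor. Its reads numbered 790 in control, 7854 after glucose oxidase and 12973 after glucose oxidase plus Et2HOBA. The control library was the low one, and the library with both agents was the highest. Normalized counts, which divide reads by a size factor per library, were 10.6-fold higher after glucose oxidase (9.88 to 11.4) and 16.3-fold higher with both agents (15.2 to 17.6). These and later ranges in brackets are exact Clopper-Pearson intervals at 95% on the reads of a pair of libraries; they describe counting error in those libraries and not the spread of a condition, since no group had a replicate. Asns shared no 50-base stretch with another annotated gene.

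Both proline genes were higher in the treated libraries, Pycr1 far more than Aldh18a1. Aldh18a1 encodes the enzyme that starts proline synthesis by turning glutamate into pyrroline-5-carboxylate, and Pycr1 a mitochondrial reductase that completes it. Pycr1 (ENSMUSG00000025140.15, chromosome 11, 120635712 to 120643769, minus strand) had 93 control reads, 1219 after glucose oxidase and 1681 with both agents. It was scarce only in control: its level was 14.0-fold higher after glucose oxidase (11.3 to 17.5) and 18.0-fold higher with both agents (14.6 to 22.4). Aldh18a1 (ENSMUSG00000025007.13, chromosome 19, 40550257 to 40588463, minus strand) had 1967, 5312 and 7450 reads in the same order of libraries. It was already well expressed in control and was 2.89-fold (2.74 to 3.04) and 3.76-fold (3.58 to 3.96) higher in the treated libraries. Per length of merged exons, Aldh18a1 exceeded Pycr1 by 20.4-fold in control (16.6 to 25.4), 4.21-fold after glucose oxidase (3.96 to 4.49) and 4.28-fold with both agents (4.06 to 4.52), so the levels of the first and last enzyme of the route lay closer together in both treated libraries.

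The transsulfuration genes moved in opposite directions. Cth (ENSMUSG00000028179.12, chromosome 3, 157894248 to 157925077, minus strand), for the lyase that releases cysteine from cystathionine, had 40 control reads, 470 after glucose oxidase and 718 with both agents. Its level was 12.6-fold (9.09 to 17.8) and 17.8-fold (12.97 to 25.2) that of control. Cbs (ENSMUSG00000024039.15, chromosome 17, 31608894 to 31637238, minus strand), for the synthase that makes cystathionine from homocysteine and serine, had 328, 17 and 11 reads. It was low in both treated libraries, 18.0-fold lower than control after glucose oxidase (11.1 to 31.4) and 30.0-fold lower with both agents (16.6 to 60.7). Per length, Cth stood at 0.327 of Cbs in control (0.229 to 0.455), but exceeded Cbs by 74.1-fold after glucose oxidase (45.8 to 128) and by 175-fold with both agents (97.2 to 352). The order of these consecutive steps of one pathway was therefore inverted at the mRNA level in both treated libraries. Of the 50-base stretches of the longest Cbs transcript 1.36% occurred in other genes, and Cth shared none.

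The 3 genes of glutamate-linked transamination were all higher, Bcat1 by the widest margin. Bcat1 (ENSMUSG00000030268.17, chromosome 6, 144993835 to 145076184, minus strand), the cytosolic aminotransferase of leucine, isoleucine and valine, had 127 control reads, 1434 after glucose oxidase and 2274 with both agents. That was 12.1-fold (10.1 to 14.6) and 17.8-fold (14.9 to 21.4) the control level; 3.62% of its exon bases overlap the antisense gene Gm26666, and whether counting used strand is not given in the sources used here. Got1 (ENSMUSG00000025190.13, chromosome 19, 43499752 to 43524605, minus strand), the cytosolic aspartate aminotransferase of the malate-aspartate shuttle, had 3896, 7581 and 11402 reads. It was abundant in all 3 libraries and 2.08-fold (2.00 to 2.16) and 2.91-fold (2.80 to 3.02) higher in the treated ones. Gpt2 (ENSMUSG00000031700.11, chromosome 8, 85492576 to 85527560, plus strand), the mitochondrial alanine aminotransferase, had 413, 693 and 976 reads. This was the smallest difference from control among the 9 genes in both treated libraries, 1.79-fold (1.59 to 2.03) and 2.35-fold (2.09 to 2.64).

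Glutamine synthetase, which joins ammonia to glutamate, went the other way. Glul (ENSMUSG00000026473.16, chromosome 1, 153899944 to 153909723, plus strand) had 7058 control reads, 2854 after glucose oxidase and 2120 with both agents. Control was the high library, and the level was 2.31-fold lower after glucose oxidase (2.21 to 2.42) and 3.35-fold lower with both agents (3.19 to 3.52). Of its longest transcript, 14.2% of the 50-base stretches were shared with other genes, 11.3% with the processed pseudogene Glns-ps1, which had 35, 1 and 12 reads. Those reads are few beside those of Glul. The opposite-strand gene Teddm2, which overlaps 3.49% of its exon bases, had 3 to 8 reads.

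**Figure D2:**
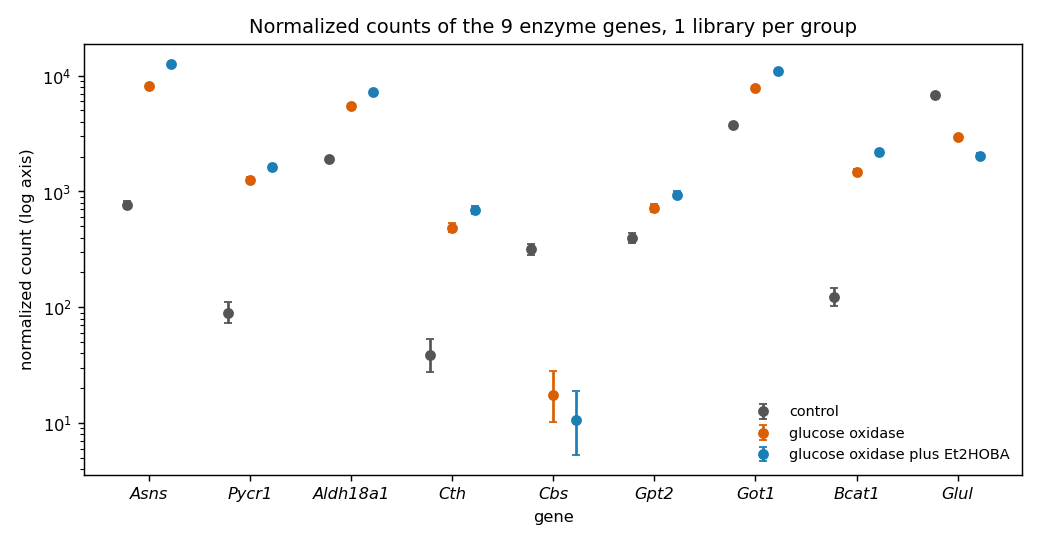
Normalized counts of the 9 genes (log axis) in control (grey), glucose oxidase (orange) and glucose oxidase plus Et2HOBA (blue), 1 library each; bars are exact Poisson intervals at 95% and cover counting error only. Cbs and Glul are highest in control and the other 7 genes are lowest there.

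For counts over genes, ratios were taken on the log2 scale after adding a pseudocount of 10 to the normalized counts, which understates the change of scarce genes. After glucose oxidase 8 of the 9 genes lay at or past 1 log2 unit from control, 6 higher and 2 lower, where 12.7% of all listed genes did so (4.07% higher and 8.6% lower). Over protein-coding genes alone, as all 9 members are, the background was 9.3% (4.53% higher and 4.76% lower). Gpt2, at 0.83, was the gene inside the limit, and with total-count scaling Got1 also fell inside it, at 0.998, which left 7. With both agents all 9 were past the limit, 7 higher and 2 lower, against a background of 14.7% (6.66% higher and 8.04% lower) over all genes and of 16.6% (7.33% higher and 9.3% lower) over protein-coding ones. The members were chosen with these contrasts known, so nothing is read from the excess over background. The median log2 ratio of the 9 genes was 1.52 after glucose oxidase and 1.91 with both agents, beside -0.01 and 0.00 over all listed genes.

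The members fell into separate ranges. Pycr1, Bcat1, Asns and Cth had log2 ratios of 3.67, 3.49, 3.39 and 3.35 after glucose oxidase and ranked between 20 and 29 from the top of 18287 genes. With both agents Bcat1 was at 4.05, Pycr1 at 4.02, Asns at 4.01 and Cth at 3.85, at ranks 29 to 34. Aldh18a1 (1.52 and 1.91), Got1 (1.05 and 1.54) and Gpt2 (0.83 and 1.21) formed a lower range at ranks between 295 and 1090. Glul was at -1.21 and -1.74. Cbs, at -3.57 and -3.99, was the gene ranked 22 from the bottom after glucose oxidase and 10 from the bottom with both agents. Both comparisons use the same control library, so the likeness of the ranks is not independent.

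**Figure D3:**
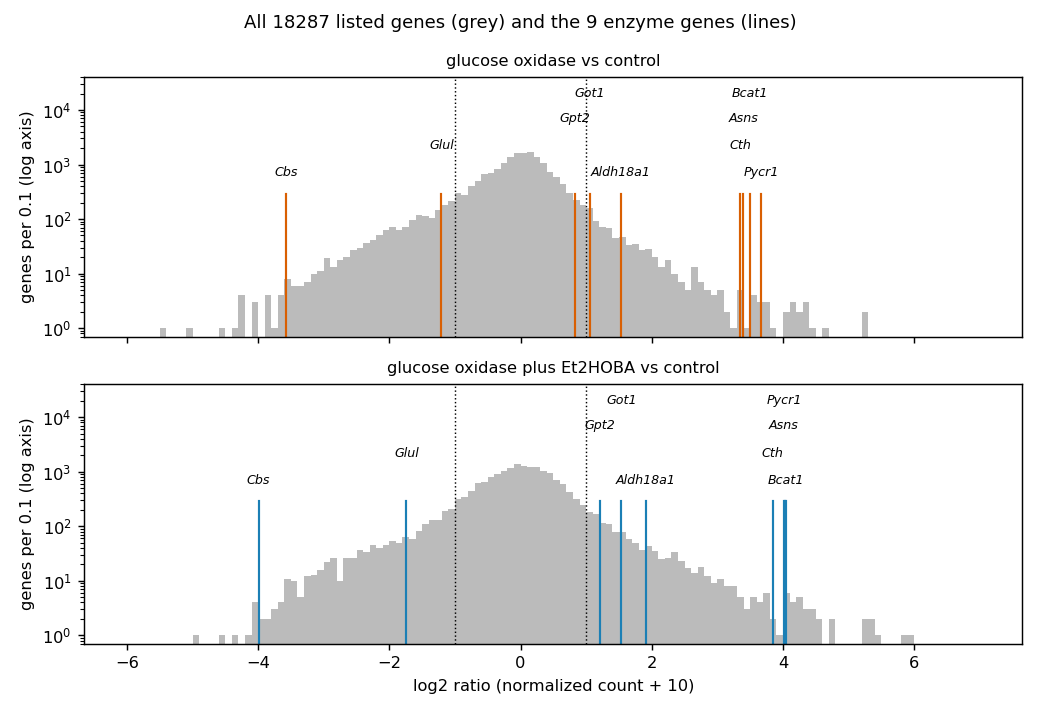
Distribution of log2 ratios of all 18287 listed genes (grey, number of genes per bin of 0.1, log axis) with the 9 genes as coloured lines, for glucose oxidase against control and glucose oxidase plus Et2HOBA against control; dotted lines mark 1 log2 unit. Pycr1, Bcat1, Asns and Cth lie in the upper tail and Cbs in the lower tail of both panels.

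The authors' deposited tables give smaller values for the members that are scarce in any library, since its transformation acts like a pseudocount larger than 10. In the authors' deposited table of glucose oxidase against control Asns had a value of 3.13, Bcat1 of 2.54, Pycr1 of 2.54, Cth of 1.86 and Cbs of -1.70. The authors' deposited table for both agents against control gave 3.91, 3.60, 3.48, 2.99 and -2.69 for the same genes. The remaining members, which are more abundant in control or changed less, had values of 1.44 and 1.87 (Aldh18a1), 1.02 and 1.52 (Got1), 0.64 and 1.11 (Gpt2) and -1.15 and -1.72 (Glul) in the authors' deposited tables. Asns, with more control reads than Pycr1, Bcat1 or Cth, was the highest of the 9 on that scale, and Pycr1 or Bcat1 was the highest on the common scale.

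The library with both agents was also compared with the library given glucose oxidase alone, 1 library on each side. None of the 9 genes reached 1 log2 unit, where 8.55% of all listed genes did (6.39% higher and 2.15% lower) and 3.32% of protein-coding genes (0.971% higher and 2.35% lower). That share of all genes depends on the scale. It was 18.1% with a pseudocount of 1, 3.20% with 50 and 0.235% on the scale of the deposited tables. No member passed on any of them. The authors deposited log2 differences of this pair for 7 genes only, so the last scale was fitted to these and applied to all genes. All 7 members above control lay higher still with Et2HOBA, and both members below control lay lower still. Asns was 1.54-fold higher than after glucose oxidase alone (1.49 to 1.58), Bcat1 1.47-fold (1.38 to 1.58), Cth 1.42-fold (1.26 to 1.60) and Got1 1.40-fold (1.36 to 1.44). The differences were smaller for Gpt2 at 1.31-fold (1.19 to 1.45), Aldh18a1 at 1.30-fold (1.26 to 1.35) and Pycr1 at 1.28-fold (1.19 to 1.38). Glul was 1.45-fold lower (1.37 to 1.53). For Cbs the interval held equal levels, at 0.601 of the glucose oxidase level (0.255 to 1.36), since 17 and 11 reads cannot place a difference of this size. On the log2 scale the change after glucose oxidase alone was between 68.3% (Gpt2) and 91.2% (Pycr1) of the change with both agents, and no member had a ratio nearer to control with Et2HOBA, although the shift of Cbs could not be placed. How far separately grown cultures of 1 group differ was not measured, so differences of 1.28-fold to 1.54-fold cannot be set against replicate spread.

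**Figure D4:**
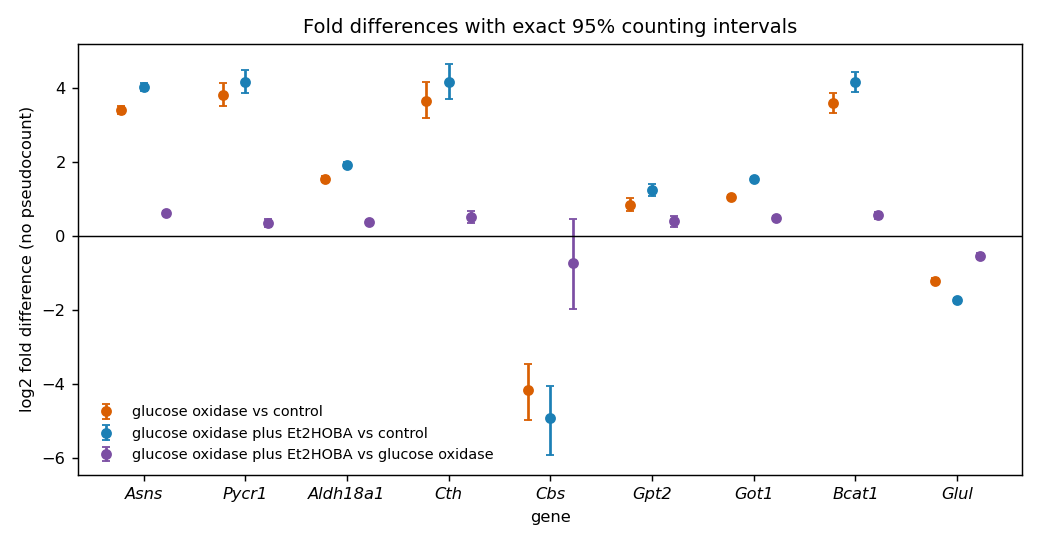
Log2 fold differences of normalized counts, without a pseudocount, for the 9 genes in the 3 comparisons; bars are exact Clopper-Pearson intervals at 95% on the reads of a pair of libraries. In the comparison of the treated libraries (purple) 7 genes lie above 0, Glul lies below it and the interval of Cbs spans it.

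Levels between genes were compared per length as TPM, the share of length-corrected reads scaled to a fixed total, computed from reads and the merged exon length of each gene. In control Glul led with 202 TPM, followed by Got1 with 146, Aldh18a1 with 46.0, Asns with 27.5, Gpt2 with 6.96, Cbs with 4.17, Pycr1 with 2.25, Cth with 1.36 and Bcat1 with 1.30. The last 3 had overlapping counting intervals between neighbours. After glucose oxidase Got1 (296 TPM) and Asns (285 TPM) led with overlapping intervals, ahead of Aldh18a1 at 129, Glul at 85.1, Pycr1 at 30.7, Cth at 16.7, Bcat1 at 15.3, Gpt2 at 12.2 and Cbs at 0.225. With both agents Asns was first at 403 TPM, above Got1 at 382, and the rest kept the order seen after glucose oxidase, from Aldh18a1 at 155 and Glul at 54.2 down to Cbs at 0.125. Cth and Bcat1 did not differ beyond their counting intervals in any library. Asns, whose enzyme consumes glutamine, thus passed Glul, whose enzyme makes it: per length it stood 7.35-fold below Glul in control, 3.34-fold above it after glucose oxidase (3.20 to 3.49) and 7.43-fold above it with both agents (7.10 to 7.79).

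Several of the 9 enzymes have a counterpart that catalyses the same reaction from another gene, and the log2 ratios of these counterparts to control lay between -0.36 and 0.10. They were chosen for display after their values were seen. Pycrl, which encodes a cytosolic pyrroline-5-carboxylate reductase, had 1428 control reads, 1209 after glucose oxidase and 1191 with both agents. Its log2 ratios to control were -0.14 and -0.27, against 3.67 and 4.02 for Pycr1. Bcat2, the mitochondrial branched-chain aminotransferase, was at 0.08 in both comparisons while Bcat1 was at 3.49 and 4.05. The mitochondrial Got2 was at -0.01 and 0.10 beside 1.05 and 1.54 for the cytosolic Got1, although 32.3% of its stretches are shared with other genes. The cytosolic Gpt had 174, 157 and 134 reads and log2 ratios of -0.05 and -0.36, beside 0.83 and 1.21 for the mitochondrial Gpt2. The compartment of the higher member thus differed from pair to pair: mitochondrial for Gpt2 and cytosolic for Got1 and Bcat1. Gaps within a pair do not depend on the library scaling beyond the pseudocount and were 3.81 and 4.29 log2 units for Pycr1 over Pycrl, 3.41 and 3.97 for Bcat1 over Bcat2, 1.06 and 1.44 for Got1 over Got2, and 0.88 and 1.57 for Gpt2 over Gpt. Gls2, whose product runs opposite to Glul by releasing ammonia from glutamine, had 179, 105 and 69 reads and log2 ratios of -0.63 and -1.26.

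**Figure D5:**
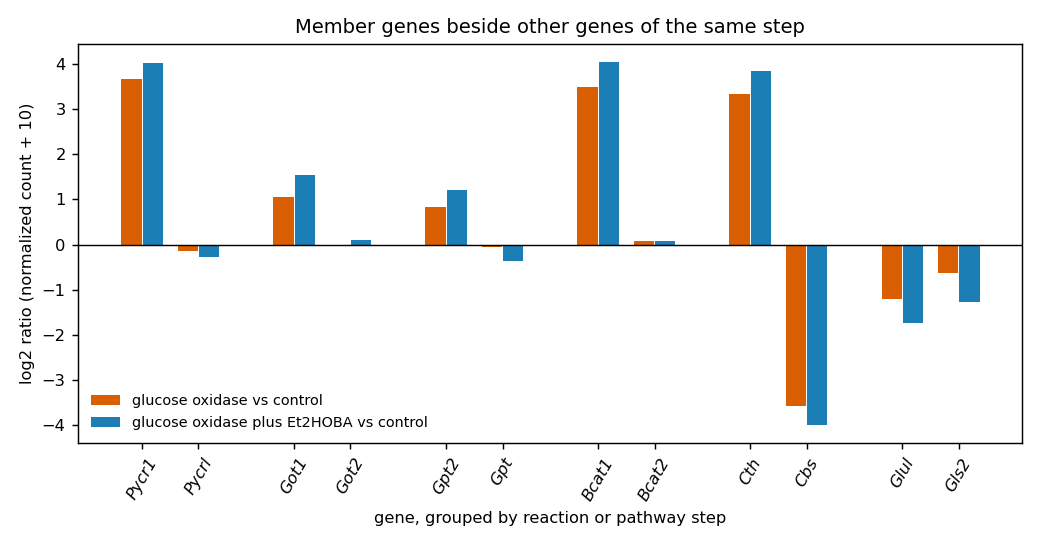
Log2 ratios to control (normalized count plus 10) after glucose oxidase (orange) and glucose oxidase plus Et2HOBA (blue) for members of the set and other genes of the same reaction or step, 1 library per group and no error bars. Pycr1, Got1, Gpt2 and Bcat1 stand above 0 beside counterparts between -0.36 and 0.10, and Cth and Cbs point in opposite directions.

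A wider list of 60 symbols of amino acid metabolism was drawn up by pathway, with earlier results of these data known and without the 9 members. Its shares leave out the members but may still hold genes already known to differ. It had 54 listed genes, all protein-coding. After glucose oxidase 7 of the 54 (13.0%) were at or past 1 log2 unit, 6 higher and 1 lower, beside 12.7% of all listed genes and 9.3% of protein-coding genes (4.53% higher and 4.76% lower). With both agents 15 (27.8%) were, 9 higher and 6 lower, beside 14.7% and 16.6%. Between the treated libraries 2 (3.70%) were, beside 8.55% and 3.32%, and none with total-count scaling. The list medians were 0.08, 0.11 and -0.03, beside -0.01, 0.00 and 0.00 for all genes.

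Among 16 listed genes of methionine, cysteine and sulfur, 4 (25%) were past the limit after glucose oxidase, all higher. Of protein-coding genes 9.3% were past it (4.53% higher and 4.76% lower). Gclm and Gclc, the subunits of the enzyme that commits cysteine to glutathione, had log2 ratios of 1.94 and 1.16 after glucose oxidase and 2.32 and 1.16 with both agents. Sqor, which oxidises hydrogen sulfide in mitochondria, had 1952, 5004 and 6559 reads and ratios of 1.45 and 1.73. Mat2a, which makes S-adenosylmethionine upstream of homocysteine, was at 1.01 and 0.93. Csad, which turns cysteine sulfinate toward taurine, had 3417, 1913 and 1259 reads and was past the limit with both agents, at -1.44. Mtr, which returns homocysteine to methionine, was at -0.06 and -0.24. None of the 16 was as far below control as Cbs.

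Of 11 listed proline and ornithine genes, 2 were past the limit after glucose oxidase and 5 with both agents. These were 18.2% and 45.5%, beside 9.3% and 16.6% of protein-coding genes. Prodh, which breaks proline down, had 57, 148 and 150 reads and ratios of 1.32 and 1.24. Aldh4a1, which completes that breakdown and shares 35.5% of its stretches with other genes, had 460, 391 and 236 reads and ratios of -0.14 and -0.94. P4ha1, a collagen prolyl hydroxylase subunit, was at 0.69 and 1.13, and Odc1, which makes putrescine from ornithine and shares 42.2% of its stretches with other genes, at 0.65 and 1.67. Arg1 had 50, 11 and 4 reads (ratios -1.45 and -2.08), close to the floor of 3 reads. Oat, which links ornithine to pyrroline-5-carboxylate, was at -0.68 and -1.003. Entry to proline from glutamate and entry from ornithine thus differed in sign.

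The 19 listed genes of glutamate, glutamine and branched chains held 1 gene past the limit after glucose oxidase and 5 with both agents. These were 5.26% and 26.3%, beside 9.3% and 16.6% of protein-coding genes. Psat1, which uses glutamate as amino donor in serine synthesis, had 2497, 8224 and 11789 reads and ratios of 1.81 and 2.23. Gfpt1 and Gfpt2, which feed glutamine nitrogen into hexosamines, were at 0.94 and 0.91 after glucose oxidase and at 1.89 and 1.98 with both agents, and Gfpt2 had 38, 75 and 181 reads. Oplah, which opens oxoproline to glutamate, was at -0.30 and -1.11. Odc1 and Gfpt2 were the genes of the list past 1 log2 unit between the treated libraries, at 1.02 and 1.07. Among 8 asparagine and aspartate genes none was past the limit after glucose oxidase. With both agents Aspg, an asparaginase gene, was past it, with 17, 8 and 0 reads. The same shares of protein-coding genes, 9.3% and 16.6%, stand beside these counts.

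The genes most like the extremes of the set were found by Euclidean distance in the log2 ratios against control, among genes whose mean count was not below the median. For Pycr1, the highest after glucose oxidase, they were Bcat1 at a distance of 0.18, Mthfd2 at 0.21, Asns at 0.28, Soat2 at 0.30 and Cth at 0.37. Bcat1, Asns and Cth are members and were chosen for these same ratios, so their nearness is given and not found. Mthfd2, a mitochondrial folate enzyme, had 571, 6187 and 10427 reads, and Soat2, which esterifies cholesterol, had 70, 885 and 1068. For Cbs, whose own mean count is below that median, Igf1 lay at 0.95, Eln at 1.07, Il13ra2 at 1.23, Gja4 at 1.26 and Kif11 at 1.29. Without the filter on mean count, an alternative chosen after seeing the data, the nearest genes were Gsdma (0, 102 and 156 reads) at 0.14 and Mt2 (11, 269 and 350 reads) at 0.14 for Pycr1. For Cbs they were then Nepn (247, 12 and 2 reads) at 0.40 and Nox1 (1016, 131 and 53 reads) at 0.80. The likeness rests on 3 libraries with a shared control and says nothing of shared control by a factor.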

How the data were processed

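Per the labels' protocols, stranded libraries were made from polyadenylated RNA, 1 per group. The submitters' processing notes name STAR, featureCounts and mm10, without role, version or annotation. Per the file headers, the authors deposited raw read counts for control and glucose oxidase plus Et2HOBA, log-normalized log2 values and their difference; glucose oxidase against control was deposited as log2 differences by symbol. The deposited log2 values are the arsinh of the root of the count, up to 1 constant per library. Solved for the second library of the pair, this gave reads within 0.01 of whole numbers for 100% of 18275 genes matched by symbol (3.31% after raising each control count by 1); 12 further genes were placed by whole reads. The recovery was tested on simulated data. The transformation acts like a pseudocount of 202 for glucose oxidase against control and 71.1 for glucose oxidase plus Et2HOBA against control. Log2 differences of both agents against glucose oxidase were deposited for 7 genes. The scale of that pair was fitted to these 7 genes and applied to all listed genes.

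Size factors by the median of ratios were 1.03, 0.965 and 1.04, and normalized counts were compared on the log2 scale with a pseudocount of 10 and a limit of 1. Fold differences used no pseudocount. No test between conditions was possible with 1 library per group. Merged exon lengths, overlaps and 50-base stretches came from GENCODE M21; 17878 gene IDs had the same version there and all of these the same position. Promoters came from RefSeq (GRCm38.p6). Python 3.11.15, numpy 2.4.6, scipy 1.17.1 and edgeR 4.0.16 (TMM factors only) were used. Named genes were the 9 members, every gene of the wider list past the limit against control, and the 5 nearest genes of the highest and lowest member. Other genes are values chosen after they were seen. The members and lists were chosen with earlier results of these data known.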

Additional observations from a re-analysis of the deposited data

How the results depend on the processing

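The sign of all 27 member values (9 genes in 3 comparisons) was the same under every alternative: pseudocounts of 1 and 50, total-count and TMM scaling, the scale of the authors' deposited tables, a minimum mean count of 10, and genes with no shared 50-base stretch, in which 5 members remained. The number of members past the limit stayed within 1.5 times of the reported one except with another limit or fewer genes. At a limit of 0.5 it was 9 for glucose oxidase against control, 9 for both agents against control and 3 between the treated libraries. Of all listed genes 33.8%, 40.1% and 25.5% were past 0.5 in the same order of comparisons. At a limit of 2 the number of members was 5, 5 and 0, beside 2.876%, 3.801% and 2.138% of all listed genes. Over genes with no shared stretch it was 5 of 5, 5 of 5 and 0 of 5, by construction of fewer genes. Of all such genes 9.08%, 16.5% and 2.97% were past 1 log2 unit. For the wider list of 54 genes a limit of 0.5 gave 21, 27 and 11, beside 33.8%, 40.1% and 25.5% of all listed genes. A limit of 2 gave 0, 3 and 0 genes of that list, beside 2.876%, 3.801% and 2.138% of all listed genes. Of the 35 genes of the wider list with no shared stretch 3 were past 1 log2 unit after glucose oxidase. A pseudocount of 50 gave 9 of the 54 with both agents against control, beside 9.27% of all genes. Between the treated libraries the list had 5 with a pseudocount of 1, 1 with 50, 0 with total-count scaling and 0 on the scale of the deposited tables. The shares of all genes were 18.1%, 3.20%, 8.71% and 0.235% in the same order, and the cause was not tested.

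Over all genes past the limit, the balance of higher and lower changed from 4.07% and 8.60% to 4.52% and 4.56% after glucose oxidase, and from 6.39% and 2.15% to 0.921% and 2.05% between the treated libraries, over genes with no shared stretch. Total-count scaling changed it from 6.66% and 8.04% to 5.40% and 10.05% with both agents, where it put the median of all genes at -0.13. The share of all genes past the limit after glucose oxidase and with both agents was 23.2% and 24.6% with a pseudocount of 1, 6.36% and 9.27% with 50, and 4.01% and 9.67% on the scale of the deposited tables. Leaving out a replicate could not be run, since each group had 1. No paired analysis was possible because each group had 1 library. Depth limits Cbs most: its log2 ratio ranged from -4.10 to -1.70 after glucose oxidase and from -4.78 to -2.60 with both agents.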
